A study of Mus musculus with 7 samples.

Results

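The genes described here are Hif3a and the other members of the hypoxia-inducible factor (HIF) oxygen-sensing family, 9 genes in all of the 17209 listed for muscularis macrophages. They were chosen by name: the alpha subunits Hif3a, Hif1a and Epas1, their partner Arnt, the prolyl hydroxylases Egln1, Egln2 and Egln3, the ubiquitin ligase subunit Vhl and the asparaginyl hydroxylase Hif1an. All 9 were listed. Hif3a was selected on its RNA counts in these same libraries, which were much higher after pMCAO, so its difference between the groups is described without a test.

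Muscularis macrophages are resident macrophages of the muscle layer of the gut. The muscle layer was peeled from whole mouse small intestines 24 h after surgery, and cells with green fluorescent protein under the Cx3cr1 fractalkine receptor were sorted from it. The series holds pMCAO 1 to pMCAO 3, from animals with the surgery that its title calls stroke, and Sham 1 to Sham 4, from animals with sham surgery, so 3 libraries stand against 4. The labels give the genotype of both groups as C57BL6/J without naming the reporter allele, give no age, and name a pool in the description of pMCAO 3. They do not say whether a library came from a single animal. The p-values therefore compare libraries, and whether they hold for animals is not known.

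In cells with enough oxygen, the prolyl hydroxylases modify the alpha subunits, the VHL protein binds the modified form and the proteasome destroys it. When oxygen falls the alpha subunits persist, pair with ARNT and bind DNA at sites with the core letters ACGTG, where they raise genes of glycolysis, iron handling and vessel growth. In macrophages HIF1A is also raised by inflammatory signals. These steps act largely on protein, which RNA counts do not show. HIF3A differs from its relatives: several of its mouse splice forms lack the activating end and restrain the other alpha subunits, and its RNA is known to be raised by both hypoxia and glucocorticoids.

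The DNA around the start of Hif3a is shown because this gene had the largest difference among the members, and those of Egln1 and Egln3 because both genes are known HIF targets that feed back on the pathway. Each RefSeq window (GRCm38.p6) runs from 250 bases before to 50 after the start, printed 5′ to 3′ on the gene's own strand, with ACGTG on either strand in capitals. They lie at chr7:17062378-17062677, chr8:124949205-124949504 and chr12:54203825-54204124, all on the minus strand.
Hif3a: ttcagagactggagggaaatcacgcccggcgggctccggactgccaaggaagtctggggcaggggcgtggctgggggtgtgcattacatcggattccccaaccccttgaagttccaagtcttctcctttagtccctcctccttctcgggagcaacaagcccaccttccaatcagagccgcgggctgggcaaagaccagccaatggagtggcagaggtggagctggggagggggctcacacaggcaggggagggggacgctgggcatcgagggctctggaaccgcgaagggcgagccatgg
Egln1: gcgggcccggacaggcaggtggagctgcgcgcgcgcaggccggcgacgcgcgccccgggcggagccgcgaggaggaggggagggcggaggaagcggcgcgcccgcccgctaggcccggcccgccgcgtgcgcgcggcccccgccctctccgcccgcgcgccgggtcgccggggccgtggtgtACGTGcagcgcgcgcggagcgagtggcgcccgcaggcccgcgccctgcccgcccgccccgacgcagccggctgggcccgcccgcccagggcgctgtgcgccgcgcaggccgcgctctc
Egln3: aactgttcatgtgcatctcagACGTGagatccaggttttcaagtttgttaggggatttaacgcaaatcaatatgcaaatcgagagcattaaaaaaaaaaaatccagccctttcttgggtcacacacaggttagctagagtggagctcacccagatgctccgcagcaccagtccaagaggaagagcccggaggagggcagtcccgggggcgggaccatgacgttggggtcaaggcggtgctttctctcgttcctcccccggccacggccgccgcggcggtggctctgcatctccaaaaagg
The Hif3a window held no ACGTG, while the Egln1 and Egln3 windows held 1 each. Among all 32851 RefSeq windows of the same length, 19.6% held at least 1 such core. The letters AGAACA, 1 arm of the palindrome that the glucocorticoid receptor binds, were searched on both strands and were in none of the 3 windows and in 19.0% of all windows. Such letters describe the window only. GENCODE M21 lists 4 protein-coding transcripts of Hif3a (ENSMUSG00000004328, chromosome 7, 17031507 to 17062427) with 4 different starts, and only the window at the outermost start is shown. The counts pool all 4, so they do not say which splice form was present.

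Counts assigned to the listed genes were 12685941 to 21680302 in pMCAO libraries and 18873893 to 34432716 in sham libraries. Summed RNA of 12 macrophage markers was 20222 to 22972 CPM (counts per 1000000 counts, with TMM factors) after pMCAO and 23263 to 30584 CPM after sham surgery. Of these 12, 2 had higher means after pMCAO, and their median log2 difference was -0.37. Markers of other cells were present, several of them at higher levels after pMCAO. The 6 monocyte markers, 4 of them with higher means, summed to 2336 to 3074 CPM in pMCAO libraries and 1558 to 2368 CPM in sham libraries. The 6 markers of B and plasma cells summed to 1129 CPM in Sham 1 and to 48.5 to 198 CPM in the other libraries of both groups. Of 9 measured fibroblast markers all had higher means after pMCAO, with sums of 107 to 538 CPM in pMCAO libraries and 59.0 to 170 CPM in sham libraries. Of 10 blood endothelial markers all had higher means, with sums of 402 to 585 CPM in pMCAO libraries and 124 to 348 CPM in sham libraries, and 1 of them (Sox17) rose by the test over all genes. Of 7 measured markers of peritoneal macrophages 6 had higher means after pMCAO, with a median log2 difference of 1.66 over the 7. They summed to 68.9 to 152 CPM after pMCAO and 46.8 to 66.2 CPM after sham surgery, and the defining Gata6 was not among the listed genes. Mitochondrial ribosomal RNA took 8.26% to 12.6% of pMCAO counts and 2.42% to 5.82% of sham counts. The part of these markers and of this RNA in the differences below was not tested, and the covariate fits given there are descriptive. In such a bulk sample, fewer cells of a type and less RNA per cell cannot be told apart.

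Hif3a RNA was more abundant in each pMCAO library than in any sham library. It had 1113, 1969 and 2159 counts in pMCAO 1 to 3, against 107, 107, 234 and 76 counts in Sham 1 to 4. After scaling for depth this was 95.1, 92.7 and 121 CPM in the pMCAO libraries, against 5.49, 4.60, 11.8 and 2.09 CPM in the sham libraries. The groups stood far apart: the lowest pMCAO library was 7.86 times the highest sham library. The pMCAO libraries lay close together, with the highest 1.31 times the lowest, whereas the sham libraries spanned 5.65 times, from Sham 4 to Sham 3. The means were 103 ± 15.7 CPM after pMCAO (SD, n = 3) and 6.0 ± 4.13 CPM after sham surgery (SD, n = 4), a ratio of 17.2. The log2 difference was 4.12 (SE 0.46), number 4 from the top of the 17209 genes. In the authors' deposited table the log2 fold change of Hif3a was 4.55. With each library left out in turn the difference was between 3.82 and 4.68.

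**Figure D1:**
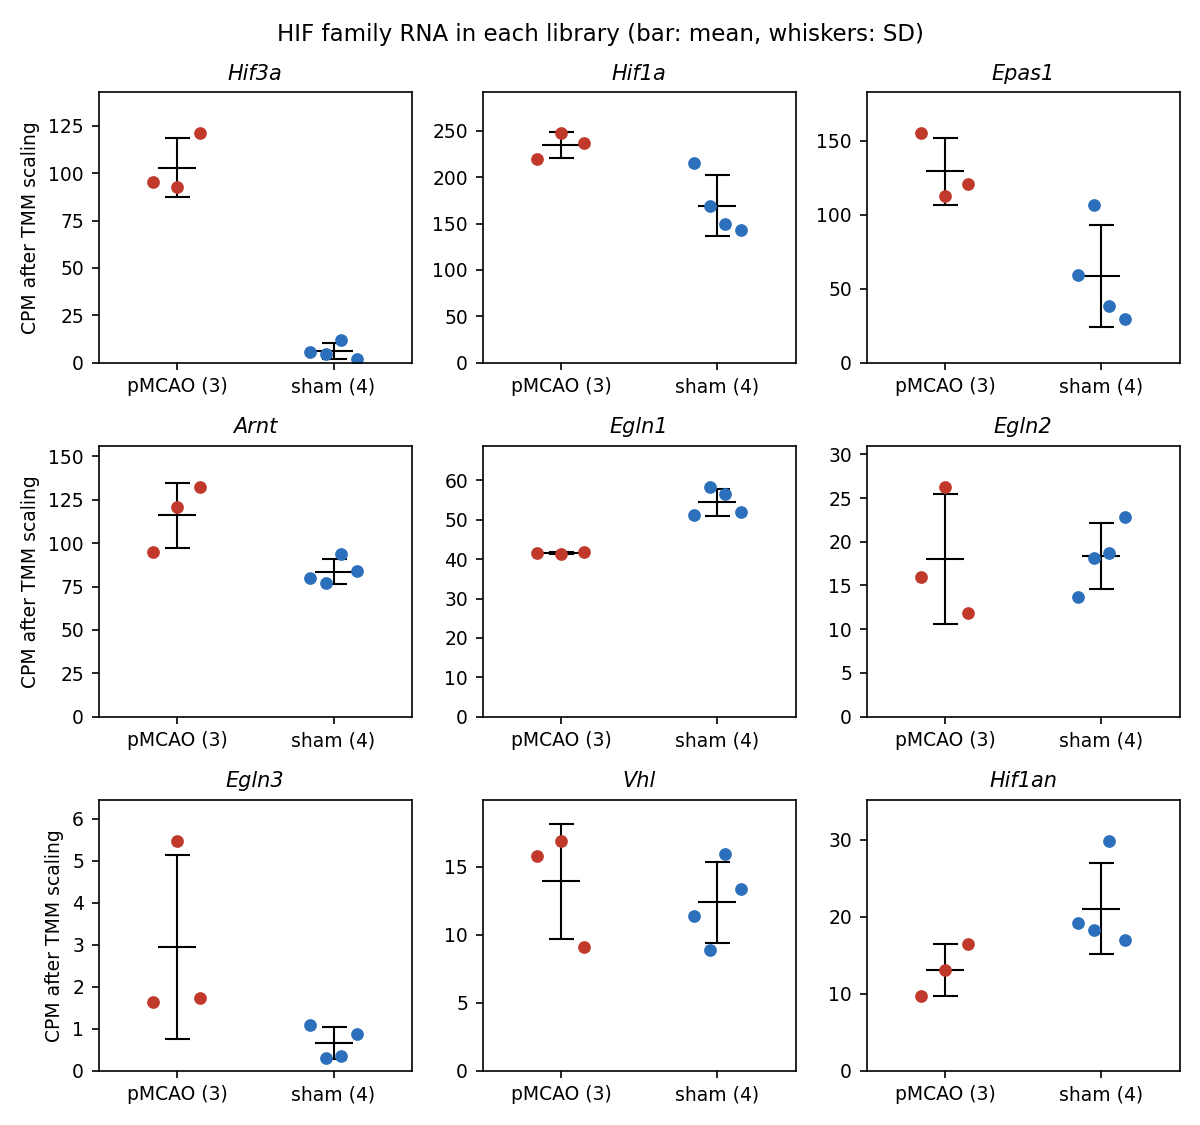
RNA level of the 9 family members in each library, in CPM after TMM scaling, on linear axes that start at 0, with pMCAO (3 libraries) left of sham (4 libraries). Points are libraries, bars the mean and whiskers the SD. Hif3a separates the groups by the widest ratio, and the 3 pMCAO values of Egln1 nearly coincide at 41.4 to 41.7 CPM.

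None of the other 8 members passed the edgeR test. By the edgeR quasi-likelihood test with Benjamini-Hochberg adjustment over all genes, 17 of 17209 genes changed (0.0988%), 12 higher (0.0697%) and 5 lower (0.0291%), and 0 of the 8 were among them. At an unadjusted p under 0.05, which 13.4% of all genes reached, 4 of the 8 were higher (6.97% of all genes) and 1 was lower (6.47% of all genes). The libraries of the 2 groups did not overlap for 6 of the 8, 4 of them higher after pMCAO and 2 lower. Over all genes 12.6% did not overlap, 5.99% of them higher and 6.58% lower as shares of all genes. The median log2 difference of the 8 was 0.32, against -0.02 over all genes. Egln3 is in both counts of higher members and in this median. It was above 0.5 CPM in 5 libraries, all those after pMCAO among them. Its listing thus rested partly on the group in which it was higher, which limits the comparison with all genes.

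The other alpha subunits were both at higher means after pMCAO. Hif1a, the alpha subunit of most tissues and the main one of inflamed macrophages, had 219, 247 and 236 CPM in pMCAO 1 to 3, against 215, 169, 149 and 143 CPM in Sham 1 to 4. Sham 1 nearly reached pMCAO 1, and the other sham libraries were well below. Its log2 difference was 0.47 (SE 0.18, edgeR adjusted p = 0.272), and with limma-voom and quality weights it was 0.53 and passed (adjusted p = 0.0489). In GENCODE M21 the exons of Hif1a (ENSMUSG00000021109, chromosome 12, 73901375 to 73947530) share 330 bases with the antisense gene Gm15283, which had 73 to 207 counts a library against 2566 to 5251 for Hif1a. Whether the counting used strand is not given in the sources used here.

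Epas1 encodes HIF2A, an alpha subunit best known from endothelium and from the control of erythropoietin. It had 155, 112 and 121 CPM in pMCAO 1 to 3, against 59.3, 107, 38.2 and 29.6 CPM in Sham 1 to 4. Sham 2 nearly reached pMCAO 2, and the sham libraries spanned 3.6 times. The log2 difference was 1.15 (SE 0.36, edgeR adjusted p = 0.210), with a mean ratio of 2.21. In the authors' deposited table it was 0.35, with an FDR of 0.523 by the authors' test. The edgeR call depended on Sham 2. Without it the log2 difference was 1.61 and Epas1 passed (edgeR adjusted p = 0.0298), as did 0.274% of all genes. With Sham 2 kept, Epas1 also passed with DESeq2 (adjusted p = 0.0303), which called 2.97% of all genes. It passed as well with limma-voom and sample quality weights (adjusted p = 0.0174), which called 5.05%.

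Epas1 and Hif3a were set beside the markers of fibroblasts and blood endothelium. Their joint score, the mean log2 CPM of the 19 measured markers minus its sham mean, was 1.97, 0.83 and 1.56 in pMCAO 1 to 3, against -0.06, 0.89, -0.48 and -0.35 in Sham 1 to 4. Sham 2 thus had a score above that of pMCAO 2. Between these 2 libraries Epas1 was nearly equal, at 112 CPM in pMCAO 2 and 107 CPM in Sham 2, while Hif3a was at 92.7 CPM in pMCAO 2 and 4.60 CPM in Sham 2, a ratio of 20.1. With the score as a covariate the log2 difference was 4.59 for Hif3a (SE 0.82) and 0.00 for Epas1 (SE 0.37). That fit called 0 of the 17209 genes, and 996 had an unadjusted p under 0.05. The score itself differed between the groups, so with 7 libraries the fit cannot divide either difference between score and group. The part of the score in either difference was not tested.

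**Figure D2:**
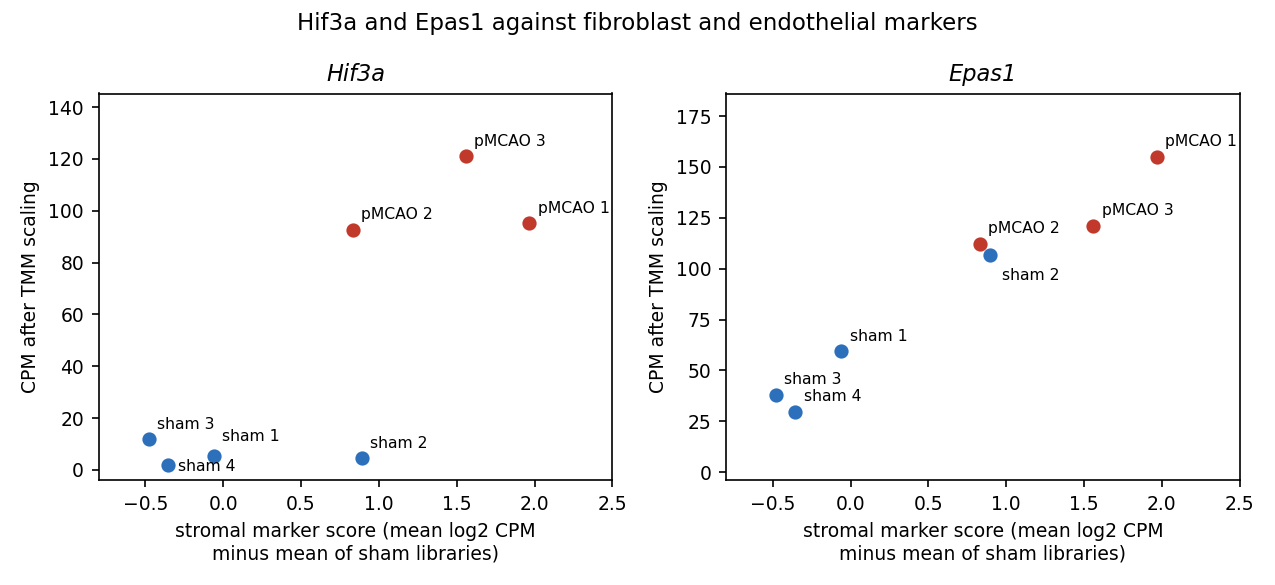
Hif3a (left panel) and Epas1 (right panel), in CPM after TMM scaling, against the fibroblast and endothelial marker score of the same library, with pMCAO libraries in red and sham libraries in blue, each point a library. Sham 2 lies beside pMCAO 2 for Epas1 but at 4.60 CPM against 92.7 CPM for Hif3a.

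Fat is another tissue that borders the gut wall. Of 11 adipocyte markers 5 were measured (Plin4, Lipe, Pnpla2, Cfd and Fabp4), and the defining Adipoq, Plin1, Cidec and Lep were not in the table, which holds genes above 0.5 CPM in at least 4 libraries. All 5 had higher means after pMCAO, with a median log2 difference of 1.31. They summed to 316, 727 and 178 CPM in pMCAO 1 to 3, against 226, 248, 133 and 122 CPM in Sham 1 to 4. The sum of pMCAO 3 lay within the sham range. With the adipocyte score as a covariate the log2 difference of Hif3a was 4.32 (SE 0.54), and the part of fat in that difference was not tested.

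Arnt, the shared partner that all alpha subunits need to bind DNA, had 95.1, 121 and 132 CPM in pMCAO 1 to 3, against 80.1, 76.8, 93.5 and 84.0 CPM in Sham 1 to 4. Sham 3 and pMCAO 1 lay side by side. On the log2 scale the difference was 0.47 (SE 0.18, edgeR adjusted p = 0.272), almost the same as that of Hif1a.

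The alpha subunits share ARNT as a partner, and their RNA was set side by side per kilobase of merged exons. Hif3a made up 17.9%, 18.2% and 22.6% of alpha subunit RNA in pMCAO 1 to 3, against 1.71%, 1.41%, 5.19% and 1.05% in Sham 1 to 4. Its share rests on the difference it was picked for. Hif1a was the largest part in every library, at 47.0% to 55.3% after pMCAO and 59.2% to 81.2% after sham surgery. Epas1 made up 26.5% to 35.1% after pMCAO and 17.8% to 39.4% after sham surgery, where Sham 2 had the highest share of all libraries.

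The ratio of Epas1 to Hif1a does not involve Hif3a. Its log2 value was -0.42, -1.06 and -0.89 in pMCAO 1 to 3, against -1.78, -0.59, -1.89 and -2.19 in Sham 1 to 4. Sham 2 lay among the pMCAO libraries, so the groups overlapped. The means were -0.79 ± 0.33 after pMCAO (SD, n = 3) and -1.61 ± 0.70 after sham surgery (SD, n = 4). The difference of 0.82 did not pass a two-sided exact permutation test (p = 0.171), in which 4 against 3 libraries cannot go below p = 0.0571.

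**Figure D3:**
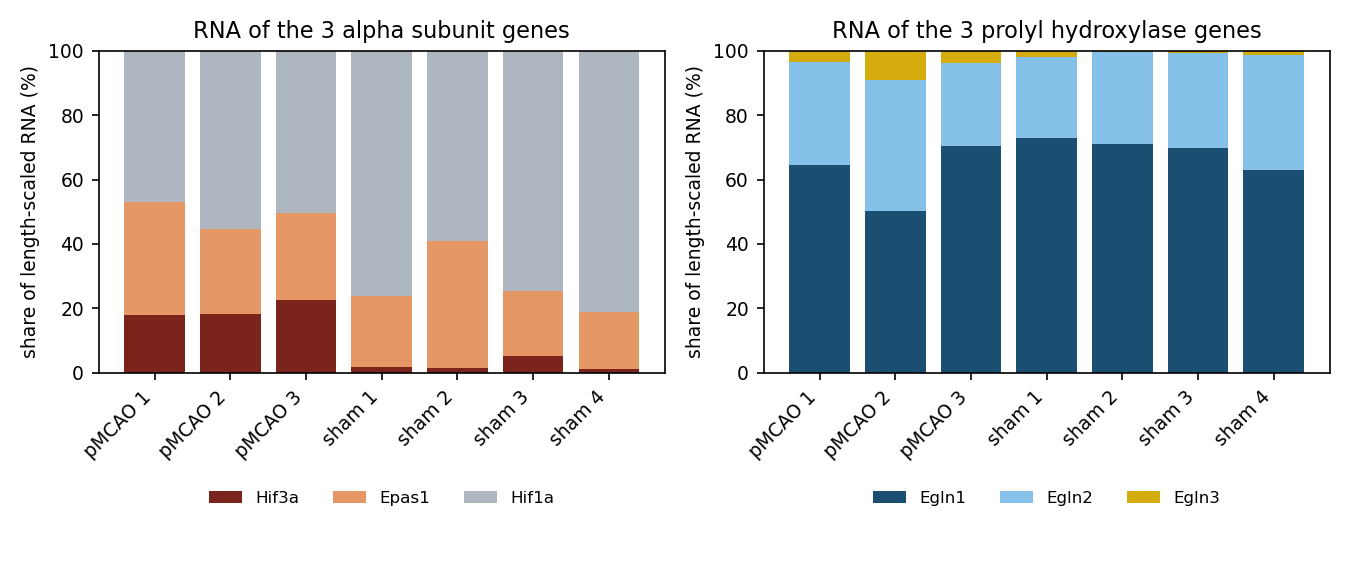
Share of each gene in the length-scaled RNA (CPM per kilobase of merged exons) of the 3 alpha subunit genes (left) and of the 3 prolyl hydroxylase genes (right), in percent, 1 stacked bar per library. Hif3a takes 17.9% to 22.6% of alpha subunit RNA in the pMCAO libraries and 1.05% to 5.19% in the sham libraries, and Egln1 is the largest part of prolyl hydroxylase RNA in every library.

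Of the oxygen-sensing hydroxylases, Egln1 and Hif1an were lower in all pMCAO libraries, Egln3 was higher in all of them and Egln2 overlapped, none of them past the edgeR test. Egln1 encodes PHD2, the main oxygen sensor of most cells. It had 41.5, 41.4 and 41.7 CPM in pMCAO 1 to 3, against 51.2, 58.2, 56.5 and 51.9 CPM in Sham 1 to 4. All pMCAO libraries were below all sham libraries, with a mean ratio of 0.763. This was a log2 difference of -0.39 (SE 0.18, edgeR adjusted p = 0.375).

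Egln2, which encodes PHD1, had 16, 26.2 and 11.8 CPM in pMCAO 1 to 3, against 13.7, 18.2, 18.8 and 22.8 CPM in Sham 1 to 4. The groups overlapped throughout, with a log2 difference of -0.03 (SE 0.31, edgeR adjusted p = 0.982). Its exons share 11 bases with Cyp2t4 on the other strand. Egln3 encodes PHD3, the hydroxylase that hypoxia raises most in many cells. It was the scarcest member, at 19, 116 and 31 counts in pMCAO 1 to 3, against 21, 7, 7 and 32 counts in Sham 1 to 4. In CPM this was 1.62, 5.46 and 1.74 after pMCAO, against 1.08, 0.301, 0.353 and 0.880 after sham surgery. The values did not overlap, but pMCAO 2 alone was at more than 5 CPM. The log2 difference was 2.16 (SE 0.80, edgeR adjusted p = 0.268), and 1.36 without pMCAO 2. The same library had the highest adipocyte marker sum, and with the adipocyte score as a covariate the difference was 1.22 (SE 0.90). With the fibroblast and endothelial score it was 3.70 (SE 1.30). As Egln3 was above 0.5 CPM in 5 libraries, all those after pMCAO among them, its listing in the table rested partly on the group in which it was higher.

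Hif1an encodes FIH, which blocks the activating end of the alpha subunits by hydroxylating an asparagine. It had 9.66, 13 and 16.4 CPM in pMCAO 1 to 3, against 19.1, 18.2, 29.8 and 17 CPM in Sham 1 to 4. The groups did not overlap, though pMCAO 3 and Sham 4 were close, and Sham 3 stood above the others. Hif1an had a log2 difference of -0.69 (SE 0.31, edgeR adjusted p = 0.348). Vhl, the subunit that recognises hydroxylated HIF, had 15.8, 16.9 and 9.08 CPM in pMCAO 1 to 3, against 11.3, 8.86, 15.9 and 13.4 CPM in Sham 1 to 4. The groups overlapped, with a log2 difference of 0.17 (SE 0.33, edgeR adjusted p = 0.863).

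Ordered by level per kilobase of merged exons, Hif1a was the most abundant member in both groups, at 39.7 ± 2.39 CPM per kilobase after pMCAO (SD, n = 3) and 28.7 ± 5.58 CPM per kilobase after sham surgery (SD, n = 4). After pMCAO it was followed by Epas1 (23.2), Hif3a (15.3), Arnt (14.5), Egln1 (11.6), Egln2 (6.43), Vhl (4.64), Hif1an (1.97) and Egln3 (1.11), all in CPM per kilobase. Neighbours whose libraries overlapped were Hif3a and Arnt, Egln2 and Vhl, and Hif1an and Egln3. After sham surgery the order was Hif1a, Egln1 (15.2), Epas1 (10.5), Arnt (10.4), Egln2 (6.56), Vhl (4.13), Hif1an (3.19), Hif3a (0.894) and Egln3 (0.245), in the same unit. There the ranges of Epas1 overlapped those of both its neighbours, Egln1 and Arnt, the ranges of Vhl those of Egln2 and Hif1an, and those of Hif3a that of Egln3. Hif3a thus stood at place 3 after pMCAO and at place 8 after sham surgery. Scaled by the longest transcript instead, which takes Arnt from 8007 to 4325 bases, Arnt was at place 2 in both groups, and Hif3a at place 4 after pMCAO and at place 8 after sham surgery.

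No measured gene on the list of known HIF targets passed the edgeR test. Adm, Epo, Lox, Stc2, Ak4, Ndufa4l2 and Cox4i2 were also on the list but not in the table. The table holds genes above 0.5 CPM in at least 4 libraries. A target above that level only in the 3 pMCAO libraries could thus not be measured. Of 73 measured target genes, 0 rose and 0 fell by the edgeR test over all genes, at a background of 0.0988%, and 39 had higher and 34 lower means. At an unadjusted p under 0.05, 14 were higher (6.97% of all genes) and 8 lower (6.47% of all genes). The groups did not overlap for 9 that were higher (5.99% of all genes) and 9 that were lower (6.58% of all genes). The median log2 difference was 0.04, against -0.02 over all genes. Without scaling factors it was -0.09, with a median of -0.145 over all genes. The smallest adjusted p was 0.0898.

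Among the 25 measured targets in glucose use, 10 had higher and 15 lower means, with a median of -0.11. Pfkp, a phosphofructokinase of glycolysis, had 21.6, 22.6 and 23.5 CPM in pMCAO 1 to 3, against 66.2, 42.1, 35.1 and 35.9 CPM in Sham 1 to 4 (log2 difference -0.99, edgeR adjusted p = 0.133). It passed with DESeq2 (adjusted p = 0.0227). Pfkfb3, which makes the activator of phosphofructokinase, averaged 120 ± 29.6 CPM after pMCAO and 84.6 ± 16.7 CPM after sham surgery (SD), and Pgam1, a mutase of lower glycolysis, averaged 8.97 ± 4.67 CPM after pMCAO and 4.72 ± 1.10 CPM after sham surgery. The edgeR adjusted p was 0.331 for Pfkfb3 and 0.370 for Pgam1. Well-known members were added after their values were seen. Among them Slc2a1, the glucose transporter GLUT1, was at 20.9 ± 5.52 CPM after pMCAO and 21.1 ± 5.64 CPM after sham surgery, and Pgk1, a kinase of glycolysis, at 8.35 ± 4.89 CPM after pMCAO and 8.41 ± 0.606 CPM after sham surgery. Their log2 differences were -0.01 (SE 0.29) and -0.01 (SE 0.42), of a sign that differed between alternative settings. Ldha, lactate dehydrogenase A, was at 128 ± 47.9 CPM after pMCAO and 156 ± 24.7 CPM after sham surgery (log2 difference -0.29, SE 0.24).

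The 48 measured targets outside metabolism split more widely, with 29 higher and 19 lower means and a median of 0.20. Ddit4 encodes REDD1, an inhibitor of mTOR complex 1 that hypoxia and glucocorticoids both raise. It had 133, 113 and 99.4 CPM in pMCAO 1 to 3, against 45, 47.1, 42.1 and 11.8 CPM in Sham 1 to 4. The groups were well apart, with a log2 difference of 1.66 (SE 0.37, edgeR adjusted p = 0.115). Without Sham 4, the lowest library, the difference was 1.36 and passed (edgeR adjusted p = 0.0322), as did 0.0524% of all genes. Ccnd1, cyclin D1, averaged 71.4 ± 10.4 CPM after pMCAO and 123 ± 6.64 CPM after sham surgery (log2 difference -0.79, edgeR adjusted p = 0.0898). Pdgfb, a growth factor chain, averaged 18.8 ± 3.52 CPM after pMCAO and 37.7 ± 6.04 CPM after sham surgery (log2 difference -1.0, edgeR adjusted p = 0.118). With DESeq2 the adjusted p was 0.000475 for Ddit4, 0.00667 for Ccnd1 and 0.00992 for Pdgfb, so all 3 passed. With limma-voom and quality weights they passed as well, at an adjusted p of 0.0344 for Ddit4, 0.00819 for Ccnd1 and 0.0114 for Pdgfb.

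Other targets often read as signs of hypoxia were also added after their values were seen. Vegfa, the vessel growth factor, had 6.49, 13.9 and 1.01 CPM in pMCAO 1 to 3, against 0.616, 0.731, 5.80 and 0.742 CPM in Sham 1 to 4. The groups overlapped (log2 difference 1.86, SE 0.91, edgeR adjusted p = 0.391). With 1 library left out the log2 difference lay between 0.93 (without pMCAO 2) and 3.34 (without Sham 3). As a covariate, the adipocyte score brought it to -0.27 (SE 1.11), and the fibroblast and endothelial score to 4.15 (SE 1.41). Car9, a carbonic anhydrase that is among the most specific HIF targets, averaged 3.12 ± 0.543 CPM after pMCAO and 5.19 ± 1.02 CPM after sham surgery, with no overlap (log2 difference -0.74, SE 0.46, edgeR adjusted p = 0.505). Ankrd37 averaged 4.61 ± 0.538 CPM after pMCAO and 4.54 ± 2.0 CPM after sham surgery (log2 difference 0.03, SE 0.49). Bnip3, a receptor for mitochondrial autophagy, averaged 22.5 ± 5.24 CPM after pMCAO and 18.3 ± 4.33 CPM after sham surgery (log2 difference 0.30, SE 0.28). Kdm3a, a histone demethylase, averaged 162 ± 11.1 CPM after pMCAO and 128 ± 14 CPM after sham surgery, with no overlap (log2 difference 0.35, SE 0.16, edgeR adjusted p = 0.375). The targets Flt1 and Tek, receptors of endothelium, are also in the endothelial marker list. Flt1 averaged 121 CPM after pMCAO and 41.7 CPM after sham surgery (log2 difference 1.53, SE 0.39, edgeR adjusted p = 0.146), and it passed without Sham 2, with DESeq2 and with limma-voom and quality weights.

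**Figure D4:**
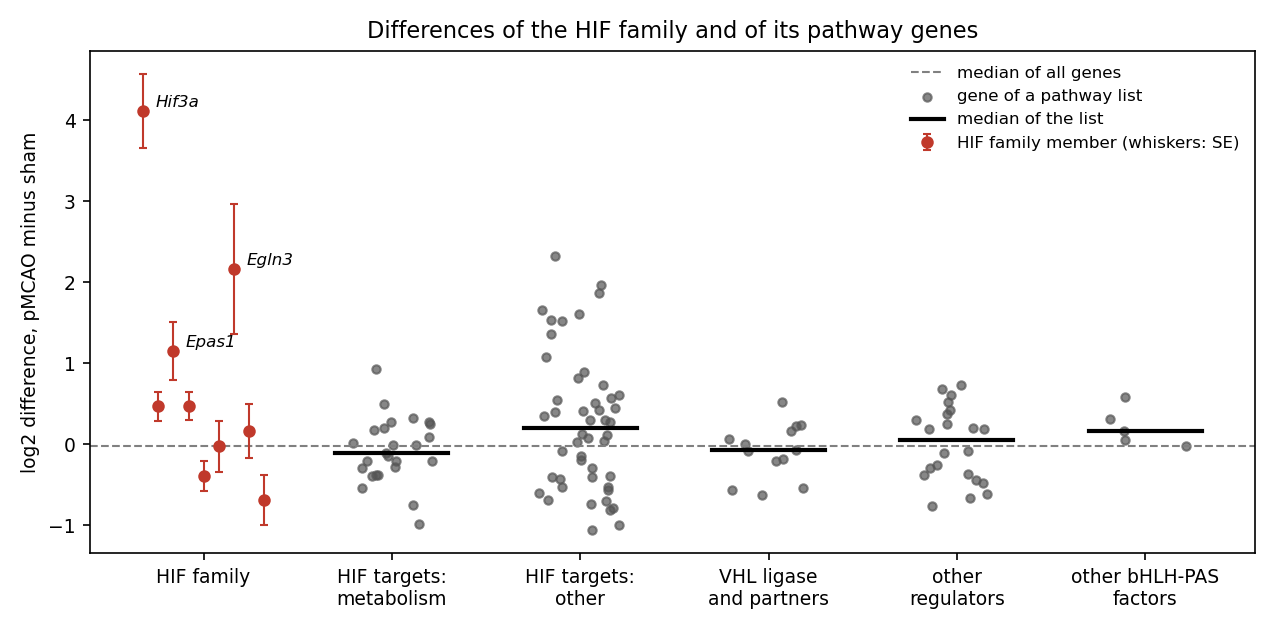
Log2 difference (pMCAO minus sham) of the 9 family members, with whiskers for the SE, and of single genes (grey points) in 5 lists of HIF targets and regulators, with black bars for list medians and a dashed line for the median of all genes (-0.02). Hif3a lies above every other gene drawn, and the list medians run from -0.11 to 0.20.

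The partners and regulators of the pathway split about evenly. Of 40 measured regulators, 0 passed the edgeR test over all genes in either direction, at a background of 0.0988%. Means were higher for 21 and lower for 19, and the median log2 difference was 0.03, against -0.02 over all genes. At an unadjusted p under 0.05, 5 were higher (6.97% of all genes) and 6 lower (6.47% of all genes). The groups did not overlap for 2 that were higher (5.99% of all genes) and 5 that were lower (6.58% of all genes). In 13 genes of the VHL ligase and its helpers, the ubiquitin-conjugating enzyme Ube2d3 averaged 790 ± 100 CPM after pMCAO and 552 ± 94.6 CPM after sham surgery (edgeR adjusted p = 0.240). Tceb2 (elongin B) averaged 38.3 ± 13.8 CPM after pMCAO and 59.0 ± 11.4 CPM after sham surgery (adjusted p = 0.325 by edgeR). Nedd8, the modifier that switches on the ligase, averaged 39.5 ± 14.2 CPM after pMCAO and 57.5 ± 10.4 CPM after sham surgery. Among 22 coactivators and other regulators, the coactivator Ncoa1 had 248, 176 and 234 CPM in pMCAO 1 to 3, against 139, 111, 150 and 147 CPM in Sham 1 to 4 (log2 difference 0.68, edgeR adjusted p = 0.141). The deacetylase Sirt1 averaged 118 ± 27.1 CPM after pMCAO and 77.1 ± 14 CPM after sham surgery, and Sart1, which in human cells promotes loss of HIF1A independent of oxygen, 18.1 ± 4.43 CPM after pMCAO and 28.7 ± 4.21 CPM after sham surgery. Of 5 measured relatives with the same bHLH-PAS fold, the clock factor Clock averaged 212 ± 49.0 CPM after pMCAO and 171 ± 13.1 CPM after sham surgery, the aryl hydrocarbon receptor Ahr 146 ± 19.2 CPM after pMCAO and 131 ± 6.69 CPM after sham surgery, and Npas2 1.67 ± 0.712 CPM after pMCAO and 1.10 ± 1.13 CPM after sham surgery. None of the genes named from these lists passed the edgeR test. Ncoa1 passed with DESeq2 (adjusted p = 0.0279), and Ncoa1 (adjusted p = 0.0126), Ube2d3 (adjusted p = 0.0149) and Sirt1 (adjusted p = 0.0164) passed with limma-voom and quality weights.

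The genes with the profile most like that of Hif3a were found by the root mean square difference, over the 7 libraries, between log2 CPM values centred on each gene's mean. Among 11587 genes of at least 5 CPM on average the median of this distance was 2.28. The nearest were Gm11827 (0.82), the imprinted zinc finger gene Peg3 (0.87), Egfros (1.12), which is transcribed opposite to Egfr, the matricellular Thbs1 (1.14), the endothelial transcription factor Sox17 (1.14) and the membrane glycoprotein Prom1 (1.15). Peg3 was at 13.6, 7.30 and 10.1 CPM in pMCAO 1 to 3, against 0.770, 1.33, 2.12 and 0.962 CPM in Sham 1 to 4. The pMCAO libraries of these 6 genes differed more among themselves than those of Hif3a: the highest was 1.86 to 3.94 times the lowest, against 1.31 times for Hif3a. Apart from Thbs1, these genes had only 110 to 412 counts in pMCAO libraries, against 1113 to 2159 for Hif3a. Close pMCAO values were not particular to Hif3a, as those of Egln1 ran from 41.4 to 41.7 CPM and those of Hif1a from 219 to 247 CPM. With the fibroblast and endothelial score as a covariate, the log2 difference of Egfros went from 2.61 to 0.87. That of Prom1 went from 2.83 to 0.95, and that of Sox17, itself a marker in the score, from 2.78 to 1.64. In that fit Gm11827 was at 2.29, Peg3 at 2.72 and Thbs1 at 2.92, against 3.00, 2.99 and 2.37 without the score. The 7 other family members of at least 5 CPM on average lay between 1.70 and 2.52 from Hif3a. Hif3a was picked for its difference between the groups, and that difference makes up most of its profile. These distances therefore largely restate it and are not a test.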

How the data were processed

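RNA from sorted cells was sequenced after ribosomal RNA removal from 2.0 ng of total RNA per library, per the labels' protocols. The authors deposited read counts per gene. STAR, featureCounts, limma and the build GRCm38 (mm10) appear, per the submitters' processing notes, without versions, and no source used here gives the strand setting. The deposited CPM values equal the count over the library's total in the table to within 0.0005, and were not used further. The log2 fold changes and the p-values and FDR of the deposited table are the authors'. The table holds 17209 genes, each above 0.5 CPM in at least 4 libraries.

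Counts were tested with the edgeR (4.0.16) quasi-likelihood test in R 4.3.3, with robust dispersions, TMM factors, the edgeR expression filter (which removed no gene), group as the only term, two-sided, Benjamini-Hochberg adjustment over all genes and a threshold of 0.05. The method was tested on simulated data. The SE of a log2 difference is its size over the square root of F. Log2 CPM for scores and profiles used a prior count of 2. Merged exon lengths, positions and overlaps came from GENCODE M21 (GRCm38), where 99.5% of the gene identifiers were found. Single values were compared with exact permutation tests (scipy 1.17.1).

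The members, gene lists and settings were chosen with earlier results of these data known. Named were all 9 members, the genes past the threshold and the 3 of smallest p in each list, and the 6 with the profile nearest to Hif3a; Slc2a1, Pgk1, Ldha, Vegfa, Bnip3, Kdm3a, Ankrd37 and Car9 were added as well-known targets after values were seen. Errors are the spread between libraries. Alternatives were other scaling, filters, DESeq2 1.42.0, limma-voom (3.58.1), a replicate block, each library left out, and marker scores as covariates. The order of levels by longest transcript was added after seeing the data.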

Additional observations from a re-analysis of the deposited data

Results flagged for a closer look

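Of 16 sets of 4 sham values examined (the 9 members, the shares and the ratio), 2 held a library far from the others, where chance flags about 1 in 20. Hif1an was at 29.8 CPM in Sham 3, against 17 to 19.1 CPM in the other sham libraries. The share of Hif3a in alpha subunit RNA was 5.19% in Sham 3, against 1.05% to 1.71% in the others. Both lie in the same library.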

How the results depend on the processing

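The Hif3a difference lay between 3.82 and 4.68 (log2) over all 18 alternative fits. The difference between the groups in the log2 ratio of Epas1 to Hif1a lay between 0.63 and 1.16 with each library left out. Counts of calls moved in few settings, and the cause was not tested. The 8 other members gave 0 calls except with DESeq2 (1, Epas1), with limma-voom and quality weights (2, Epas1 and Hif1a) and without Sham 2 (1, Epas1), a range of 0 to 1 with a library left out. DESeq2 called 470 genes in all (2.97%) and quality weights 869 (5.05%). The 73 targets gave 9 calls with DESeq2, 11 with quality weights, 1 with the replicate block and 0 to 1 with a library left out. The 40 regulators gave 1 call with DESeq2 and 3 with quality weights. The block leaves out Sham 4, which has no partner number. Ddit4 was the target called with the replicate block (adjusted p = 0.0222 by edgeR) and without Sham 4, and Flt1 without Sham 2. Deviations from the group means correlated at -0.08, -0.01 and 0.10 for same-number libraries 1 to 3, the last being the highest of all pairs. Centring on group means makes such values balance around 0 over all pairs, so this check cannot exclude that replicate numbers pair the libraries. The block moved the calls over all genes to 21.

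A direction counts as turned where the sign changes and at least 1 of the estimates exceeds its SE. This held for Vegfa alone, at -0.27 with the adipocyte score as a covariate. The sign of Egln2, close to 0, differed in 5 settings and that of Vhl in 1. EdgeR called 0 genes in all without pMCAO 1 (1987 at an unadjusted p under 0.05) and with the fibroblast and endothelial score as a covariate (996), so no member, target or regulator passed in either fit. At 7 to 116 counts a library, the depth limits Egln3 most.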
